A study of Sus scrofa with 5 samples.

Results

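The kidney xenograft biopsy taken at 48 h, the latest of a pig-to-human transplantation, was compared with untransplanted control kidney across all genes of the pig count table. The comparison used 3 of the 5 bulk RNA sequencing libraries of the series, namely the 48 h biopsy and control replicates 1 and 2, which were collected at 0 h. The remaining libraries, 1 biopsy each at 12 and 24 h, were used to place the 48 h values in time. Every library was pig kidney, read as total RNA from core biopsies after removal of ribosomal RNA. The biopsies carry the treatment label xenotransplantation and the control libraries the label control. The donor's genotype, the recipient's treatment and whether the control libraries came from separate animals are details that the sources used here did not give. The cell type field of the labels speaks of dissociated kidney cells while the protocol describes homogenised core biopsies. Genes of the proximal tubule (LRP2), the thick ascending limb (UMOD), the collecting duct (AQP2) and the podocyte (NPHS1) were counted in every library.

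A kidney tubule cell that is injured but survives can lose the transporters of its mature state, re-enter the cell cycle and divide to replace lost neighbours. Division proceeds through licensing of replication origins in G1, DNA synthesis in S phase, and a late wave of kinases, kinesins and kinetochore proteins that assemble the spindle and part the chromosomes. Interstitial fibroblasts and pericytes deposit collagens and other matrix around injured tubules, and this matrix is remodelled by secreted proteases.

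Levels are given as CPM, a gene's counts relative to its library's total, scaled by the trimmed mean of M values (TMM), which sets most genes level between libraries. CPM was not divided by transcript length, so levels are compared between libraries and not between genes. A fold change fitted by edgeR is given as log2 with an approximate standard error (SE), for 1 library at 48 h against 2 controls. A gene is said to be higher, lower, to have risen or fallen only where edgeR's quasi-likelihood test, with p-values adjusted by Benjamini-Hochberg over all genes tested, gave an adjusted p of 0.05 or less. The only replicates are the 2 controls, so the test assumes that the 48 h biopsy varies as that pair does. It measures the spread between the controls, taken for most genes from a trend over all genes, and this spread may be technical.

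Pig-table totals were 65919506 and 71108823 counts in controls 1 and 2, 63238072 at 12 h, 66169176 at 24 h and 56129926 at 48 h. The 13 protein genes of the mitochondrial genome took 21.9% and 33.4% of the counts in the controls and 11.8% at 48 h. Scaling by library totals alone would move the median gene at 48 h up by 0.57 on the log2 scale, against 0.02 under TMM, and all changes below are relative to the TMM scale. With library totals as the scale, differences between the 2 controls exceeded what counting noise gives (chi-square per degree of freedom 212 over 12703 genes). That value includes their difference in mitochondrial share and weighs most on genes of many counts. On the TMM scale the controls were at least 2-fold apart in 224 of 12857 genes tested (1.74%), with a median absolute log2 difference of 0.15.

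Compared with the controls, 3443 of the 12857 genes tested were higher at 48 h (26.8%) and 3140 were lower (24.4%), so that 51.2% of genes were called in either direction. At least 2-fold changes against both controls, counted with no test, were seen in 1590 genes upward (12.4%) and 1165 downward (9.06%). Under library totals alone these counts were 2785 and 496, so the upward share of 2-fold genes moved from 57.7% to 84.9%. The mean of the 12 and 24 h biopsies was taken on the log scale, where a very low value in either pulls it down. Folds over or below the earlier biopsies are relative to this mean. Against this mean, 1377 genes were higher at 48 h (10.7%) and 674 lower (5.24%). Those counts became 709 and 353 without the 12 h biopsy, 1759 and 1084 without the 24 h biopsy, and 475 and 280 under the DESeq2 test. The contrasts of the 12, 24 and 48 h biopsies with controls share the same control libraries and are set side by side only as values. Of all genes tested, 21.3% had their highest level of the 5 libraries at 48 h and 19% had their lowest. The counts of list members below are to be read beside these shares over all genes.

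**Figure D1:**
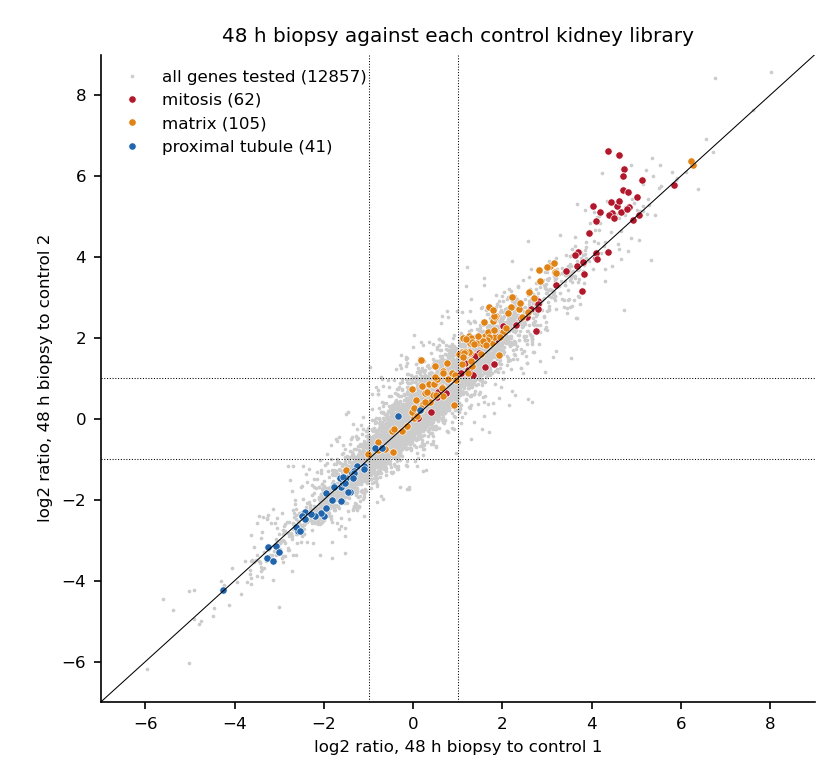
Log2 ratio of TMM-scaled CPM in the 48 h biopsy to control 1 (horizontal axis) and to control 2 (vertical axis) for 12857 genes (grey). Mitosis genes (red, 62), matrix genes (orange, 105) and proximal tubule genes (blue, 41) are overlaid, dotted lines mark 2-fold, and the diagonal marks equal ratios. Mitosis genes lie at the upper end, proximal tubule genes at the lower end, and most matrix genes lie above the diagonal because their level was higher in control 1 than in control 2.

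The genes highest against both controls included secreted and matrix-degrading proteins. LBP, which encodes the lipopolysaccharide-binding acute phase protein, was measured at 0.519 and 0.345 CPM in controls 1 and 2, 62.7 at 12 h, 48.2 at 24 h and 143 at 48 h. It rose 326-fold (log2 8.35 ± 0.20), and its 48 h value exceeded every other library. MMP7, a metalloproteinase gene of injured epithelium, stood at 5.31 and 4.82 CPM in controls 1 and 2, 459.8 at 12 h, 402 at 24 h and 399 at 48 h, a 78.7-fold rise (log2 6.30 ± 0.18). SPP1, which encodes osteopontin, stood at 75.5 and 74.1 CPM in controls 1 and 2, 7823 at 12 h, 4251 at 24 h and 4566 at 48 h, a 61.02-fold rise. MMP7 and SPP1 were near their 48 h level at 24 h, and neither differed by the test from the mean of the 12 and 24 h biopsies.

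Several of the steepest rises started from few or no counts in the controls. COL17A1, a transmembrane collagen of hemidesmosomes, was at 0.402 and 0.307 CPM in controls 1 and 2, 8.61 and 7.31 at 12 and 24 h and 40.6 at 48 h (113-fold higher than controls, 5.12-fold higher than the earlier biopsies). VGF had 2 counts in each control and 450 at 48 h, a ratio of 187 (95% counting interval 72.6 to 690.3). MMP3 (stromelysin 1), ARG1 (arginase 1) and GABRP (a GABA receptor subunit) had 0 counts in both controls. Set against a floor of 3 counts over the control pair, MMP3 was at least 88.2-fold, ARG1 at least 78.2-fold and GABRP at least 67.1-fold higher. RPL10L also rose from 0 counts, but it is a near-identical copy of RPL10 and its reads are uncertain. ADGRF4, an adhesion receptor gene, rose 65.6-fold.

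The lowest genes included detoxification enzymes, secreted proteins and immediate early transcription factors. CCL16, a chemokine gene, was measured at 151 and 183 CPM in controls 1 and 2, 47.9 at 12 h, 33.6 at 24 h and 5.42 at 48 h, 30.8-fold below the controls and 7.396-fold below the earlier biopsies. CYP2A19, a cytochrome P450 gene, stood at 258 and 299 CPM in controls 1 and 2, 83.2 at 12 h, 70.9 at 24 h and 11.7 at 48 h (23.8-fold lower than controls). Both genes fell in steps and were lowest of all libraries at 48 h. CYP1A1 had 170 and 173 counts in the controls and 1 count at 48 h, 206-fold lower with a 95% counting interval of 36.7 to 8162. SERPINA4 (kallistatin) had 75 and 41 counts in the controls and 0 at 48 h, at least 23.2-fold lower against a floor of 3 counts in the 48 h library. CBR2 had 1 count at 48 h and was 74.5-fold lower (13.1 to 2965).

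FOS, a subunit of the AP-1 transcription factor, was at 247 and 146 CPM in controls 1 and 2, 14.5 at 12 h, 11.1 at 24 h and 7.61 at 48 h (32.3-fold below control 1 and 19.2-fold below control 2). FOSB, its relative, was at 114 and 51.9 CPM in the controls and 2.34 at 48 h (48.3-fold and 21.9-fold lower). The controls themselves were apart by over 1.5 times in both genes. The FOSB call was lost under 4 alternatives. RNF212B, ZPLD1 and the cytotoxic granule gene GNLY fell 33.9-fold, 25.6-fold and 27.8-fold. The microRNA host entry ssc-mir-10390 had 233 and 408 counts in the controls and 6 at 48 h, and its call was lost when the biopsies were fitted with a straight line over time in place of 1 mean per time.

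Genes of cell division were higher at 48 h in most cases, and nearly all genes of mitosis were also higher than at 12 and 24 h. Of 117 tested genes in 6 division lists (the list of brakes left out), 101 were higher than in the controls, 5 were lower and 11 were not called. Of all genes, 26.8% were higher and 24.4% lower. These lists also hold inhibitors of division, and the lower genes include GMNN, RB1 and RBL2. The median log2 fold change of the 117 genes was 2.78, against 0.02 for all genes tested. It was 2.80 against control 1 alone and 2.72 against control 2 alone. At 12 and 24 h, set against the same controls, the medians were 0.52 and 1.05. Compared with the earlier biopsies directly, 98 of the 117 were higher at 48 h and 1 was lower, where 10.7% and 5.24% of all genes were. The 48 h library was the highest of 5 for 103 of them.

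Most replication licensing genes were higher at 48 h. The list median was 1.51 at 12 h, 1.65 at 24 h and 2.39 at 48 h, with 14 of 17 tested members higher at 48 h and 1 lower. MCM2, a subunit of the replicative helicase, was measured at 5.62 and 4.68 CPM in controls 1 and 2, 17.7 at 12 h, 30.1 at 24 h and 51.3 at 48 h (9.94-fold higher, log2 3.31 ± 0.17). ORC1, which recognises replication origins, was at 0.402 and 0.269 CPM in controls 1 and 2, 1.52 at 12 h, 4.32 at 24 h and 12.8 at 48 h (37.7-fold). MCM10 rose 19.6-fold and the origin loading factor CDC6 15.95-fold. Each of these 4 genes increased from library to library over 12, 24 and 48 h. GMNN, the licensing inhibitor geminin, was the lower member at 31.7 and 30.6 CPM in controls 1 and 2, 20.9 at 12 h, 20.1 at 24 h and 23.9 at 48 h (1.303-fold lower). The GMNN difference changed sign under library totals and its call was lost under 6 alternatives.

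The DNA synthesis list held 16 higher and 2 lower genes of 20, with a median of 1.32. POLE, the catalytic subunit of DNA polymerase epsilon, was at 0.519 and 0.461 CPM in controls 1 and 2, 2.35 at 12 h, 7.84 at 24 h and 21.1 at 48 h (42.8-fold higher). PCLAF, a partner of the replication clamp, was at 1.52 and 1.48 CPM in controls 1 and 2, 1.58 at 12 h, 9.32 at 24 h and 52.9 at 48 h (35.2-fold higher), and UHRF1, which copies DNA methylation behind the fork, rose 30.4-fold. The thymidine kinase gene TK1 was near the controls at 12 h and far above them at 48 h, with 2.64 and 2.44 CPM in the controls, 2.36 at 12 h, 6.02 at 24 h and 30.5 at 48 h. PCNA, the clamp itself, was 181 and 203 CPM in the controls and 254 at 48 h (1.32-fold), and its call was lost under 4 alternatives. PRIM2, a primase subunit, was lower at 48 h (191 and 209 CPM in the controls, 54.3 at 48 h), as was DUT, a dUTPase (106 and 138 against 73.1). Both PRIM2 and DUT were higher at 48 h than at 12 and 24 h, a call that PRIM2 lost without the 12 h biopsy and under the DESeq2 test. Of the 20 genes, 18 were higher than in the earlier biopsies and 0 were lower.

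The late wave of mitosis genes was seen at 48 h. Across 62 tested genes of 3 lists (kinases and cyclins, spindle and kinetochore, chromosome structure), 60 were higher than in the controls, 0 were lower, and 57 were at least 2-fold higher than both controls. The median was 3.80 at 48 h, after 0.47 at 12 h and 1.11 at 24 h. Against the earlier biopsies 59 of the 62 were higher at 48 h and 0 lower, and in 61 the 48 h library was the highest of 5. CDK1, the kinase that starts mitosis, was measured at 1.22 and 0.614 CPM in controls 1 and 2, 1.58 at 12 h, 3.13 at 24 h and 32.7 at 48 h. This was 35.1-fold above the controls (log2 5.13 ± 0.23) and 14.7-fold above the earlier biopsies (log2 3.88 ± 0.21). The B-type cyclins that activate CDK1 followed it, with CCNB1 at 0.8203 and 0.595 CPM in controls 1 and 2, 0.691 at 12 h, 1.11 at 24 h and 21.6 at 48 h, and CCNB2 at 0.804 and 0.883 CPM in the controls and 0.276, 1.06 and 14.2 at 12, 24 and 48 h. CCNB2 was thus below the controls at 12 h and 16.8-fold above them at 48 h.

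Kinetochore and motor genes were also higher at 48 h than in the earlier biopsies. NDC80, which ties kinetochores to microtubules, stood at 0.201 and 0.211 CPM in controls 1 and 2, 0.622 at 12 h, 1.22 at 24 h and 13.2 at 48 h (63.5-fold, log2 5.99 ± 0.32). ASPM, a spindle pole protein gene, rose 47.9-fold, and DLGAP5, a spindle stabiliser, rose 34.7-fold from 0.586 and 0.595 to 20.5 CPM. KIF14, a cytokinesis kinesin, had 7 and 0 counts in the controls and 202 at 48 h (ratio 48.04, 95% counting interval 22.9 to 121), but its call was lost under the DESeq2 test. Among the kinases and anaphase regulators, NEK2, MELK and the separase gene ESPL1 rose 37.8-fold, 42.7-fold and 35.3-fold. PRC1 and CKS2 were the 2 mitosis genes not called against the controls, at 51.8 CPM against 47.9 and 50.8 for PRC1 and at 49.5 against 37.7 and 44.4 for CKS2.

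TOP2A, the topoisomerase that untangles sister chromosomes, was measured at 2.896 and 1.67 CPM in controls 1 and 2, 2.197 at 12 h, 7.12 at 24 h and 71.3 at 48 h (30.96-fold, log2 4.95 ± 0.18). The condensin subunit genes NCAPG and NCAPH rose 46.8-fold and 14.5-fold. All 10 chromosome structure genes tested were higher than in the controls. The rule for genes higher than in the earlier biopsies also named the centromere chaperone gene HJURP and the kinesin gene KIF18B, which are outside the lists. HJURP was at 0.234 and 0.115 CPM in controls 1 and 2, 0.0138 at 12 h, 0.275 at 24 h and 3.23 at 48 h (48.9-fold over the earlier biopsies), and KIF18B at 0.0276, 0.137 and 2.68 CPM at 12, 24 and 48 h (41.8-fold). Both folds rest on few counts and are over the log-scale mean of the earlier biopsies, which the low 12 h values pull down. For HJURP the log2 difference ran from 3.54 (without the 12 h biopsy) to 7.67 (without the 24 h biopsy). For KIF18B the log2 difference ran from 4.26 to 6.50. MKI67 was not analysed here.

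**Figure D2:**
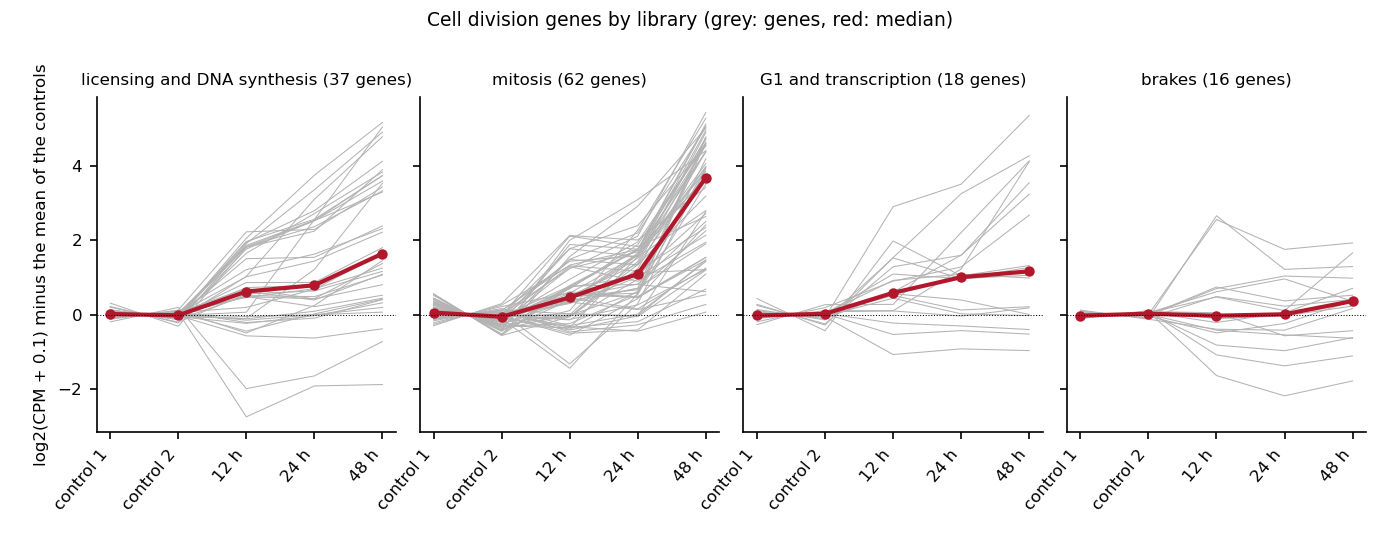
Log2(CPM + 0.1) of cell division genes minus the mean of both controls, in each of the 5 libraries, with 1 grey line per gene and the median in red. The licensing and DNA synthesis panel (37 genes) rises from 12 h, the mitosis panel (62 genes) turns upward between 24 and 48 h, the G1 and transcription panel (18 genes) rises less, and the brakes panel (16 genes) stays near the controls in the median.

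Regulators of G1 and of cell cycle transcription were mixed. Of 18 tested, 11 were higher than in the controls and 2 were lower, with a median of 1.17, where 26.8% and 24.4% of all genes were. MYBL2, a transcription factor of late cell cycle genes, was at 0.352 and 0.307 CPM in controls 1 and 2, 3.11 at 12 h, 4.78 at 24 h and 17.5 at 48 h (52.7-fold). The E2F family members E2F2 and E2F8 rose 24.6-fold and 24.5-fold. CCND1, the G1 cyclin D1, was 161 and 177 CPM in the controls and 169 at 48 h, a fitted log2 difference of 0.00 ± 0.16 that was not called. CCND1 was lower than at 12 and 24 h (249.6 and 222 CPM), a call lost under 3 alternatives. The pocket protein genes RB1 and RBL2, which hold E2F in check, were 1.44-fold and 1.96-fold lower, and the RB1 difference changed sign under library totals.

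Brakes on the cycle did not move together. Of 16 tested, 8 were higher, 5 lower and 3 not called, with a median of 0.37. Of all genes tested, 26.8% were higher and 24.4% lower. CDKN1A, which encodes the inhibitor p21, was at 10.5 and 10.6 CPM in controls 1 and 2, 62.5 at 12 h, 35.8 at 24 h and 40.4 at 48 h (3.84-fold higher, log2 1.94 ± 0.16) and peaked at 12 h. CDKN2B, which encodes p15, rose 3.78-fold at low level (0.335 and 0.365 to 1.32 CPM), with its call lost under 3 alternatives. GADD45B, a stress response gene, was at 32.2 CPM against 13.9 and 12.2 in the controls and 82.99 at 12 h. Its relative GADD45A was 3.45-fold lower at 301 and 339 CPM in controls 1 and 2, 103 at 12 h, 70.3 at 24 h and 92.8 at 48 h. CDKN1B (p27) and SESN2 were 1.56-fold and 2.17-fold lower. The GADD45B call was lost in the fits with a line over time.

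Reads were counted in a human table as well, so the same genes were read in the human count table. The human table held 29.6 counts per 100 pig-table counts over the 117 division genes at 48 h, where control 1 had 21.8 and control 2 had 20.03. Over the whole tables the ratios were 33.4 at 48 h against 22.8 and 18.8 in the controls. For the 62 mitosis genes alone the ratio was 33.5 at 48 h, level with the whole tables, and 26.7 and 25.00 in the controls. This ratio is a sum over the lists. In single members it rose by more than the sum (AURKB, PLK1) or stayed near the controls (TPX2, NUF2). For the spindle and kinetochore list it was 25.5 against 13.6 and 10.6, but PRC1 weighs on the control ratios of that list. PRC1 gave 2863 and 2646 of the list's 6138 and 5312 pig-table counts in the controls, and 3479 of 34119 at 48 h. Its human-table counts were 2 and 2 in the controls and 16 at 48 h. The untransplanted controls also gave human-table counts, so such counts do not by themselves count human cells. Whether cells of the recipient contributed to the division genes was not tested beyond these ratios. The 6 genes of the list of markers of all leukocytes summed to 128 and 123 CPM in the controls and 284 at 48 h, and their part in the result was not tested. In bulk tissue, more cells of a type and more RNA per cell cannot be told apart.

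Matrix genes and markers of the cells that make matrix were raised as well. Of 105 tested genes in 6 lists, 84 were higher than in the controls, 7 were lower and 14 were not called, with a median log2 of 1.44. Of all genes tested, 26.8% were higher and 24.4% lower. Since 92 of the 105 were higher in control 1 than in control 2, with a median log2 difference of 0.36 between the controls, each control was also used alone. The median was 1.24 against control 1 and 1.64 against control 2, and 62 genes were at least 2-fold higher than both. At 12 and 24 h the medians against the same controls were 0.72 and 1.01. Against the earlier biopsies 52 of the 105 were higher at 48 h and 5 lower, where 10.7% and 5.24% of all genes were. The count of 52 became 31 without the 12 h biopsy, 48 without the 24 h biopsy and 27 under the DESeq2 test.

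The interstitial collagens, which form the fibres of scar and of loose connective tissue, were each changed. All 15 genes tested were called, 14 higher and 1 lower, with a median of 1.94 (1.69 against control 1 and 2.39 against control 2). COL3A1, type III collagen, was measured at 460.0 and 313 CPM in controls 1 and 2, 948 at 12 h, 1574 at 24 h and 3313 at 48 h. It was 7.201-fold above control 1 and 10.6-fold above control 2 (log2 3.10 ± 0.21). COL1A1 and COL1A2, the chains of type I collagen, were at 168 and 113 CPM and at 234 and 163 CPM in the controls. At 12, 24 and 48 h COL1A1 reached 222, 527 and 769.6 CPM and COL1A2 427, 1009 and 1424 CPM. Each of these 3 genes thus increased at every time, and each was higher at 48 h than in the earlier biopsies, though the COL1A1 and COL1A2 calls were lost without the 12 h biopsy.

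COL8A1, a short-chain collagen, was 6.14-fold higher, with controls at 5.52 and 5.297 CPM and the 48 h biopsy at 33.3. COL11A1, a fibrillar collagen of cartilage, was the lower member at 1.94 and 1.94 CPM in the controls and 1.12 at 48 h. Its call was lost under 5 alternatives. In 12 of the 15 collagens the 48 h library was the highest of 5.

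Basement membrane genes split by chain. Of 18 tested, 11 were higher and 2 lower, with a median of 1.13. LAMA4, a laminin chain of vessels, was at 32.7 and 19.7 CPM in controls 1 and 2, 57.3 at 12 h, 75.5 at 24 h and 115 at 48 h (4.37-fold), and COL18A1, which gives rise to endostatin, rose 3.76-fold. The lower members were COL4A3 and COL4A4, whose chains assemble the mature glomerular basement membrane. COL4A3 stood at 143 and 119.8 CPM in controls 1 and 2, 39.97 at 12 h, 42.1 at 24 h and 50.1 at 48 h (2.62-fold lower, log2 -1.39 ± 0.16), and COL4A4 at 64.05 and 57.9 CPM in the controls and 31.6 at 48 h (1.93-fold lower). COL4A2, a chain found in most basement membranes, was 3.52-fold higher. Most podocyte markers moved with COL4A3 and COL4A4, with 5 of 8 tested lower, 1 higher and 2 not called. The 8 markers summed to 546 and 468 CPM in the controls and 351 at 48 h, and their part in the result was not tested. COL4A1 was not analysed here.

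**Figure D3:**
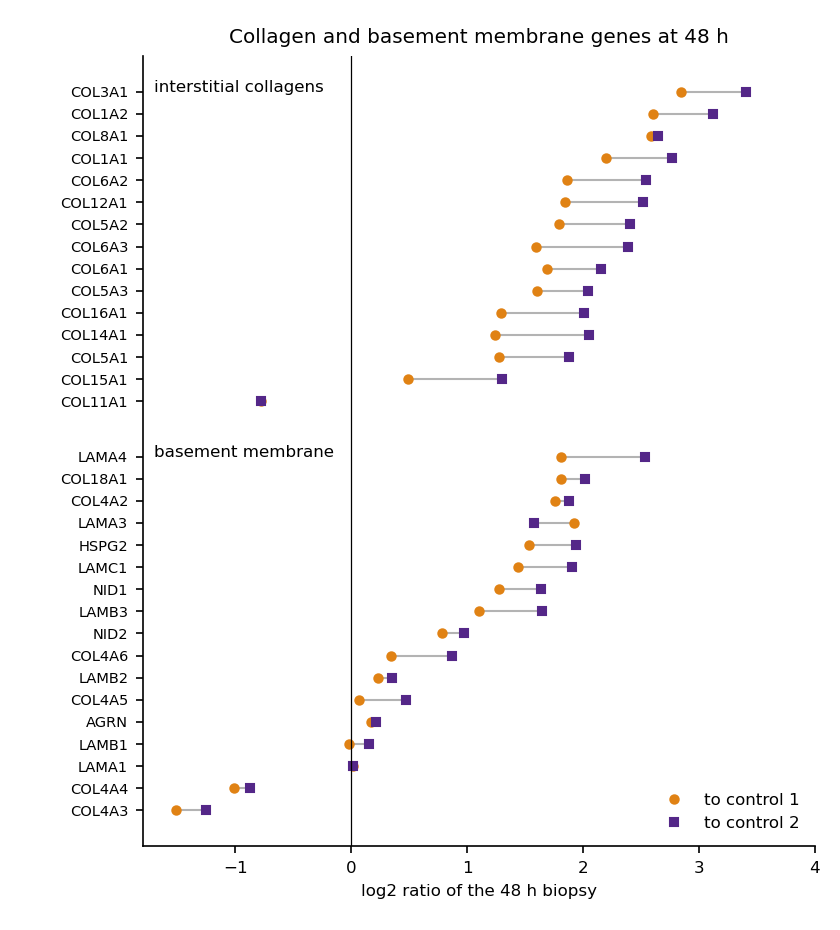
Log2 ratio of TMM-scaled CPM in the 48 h biopsy to control 1 (orange circles) and to control 2 (purple squares) for 15 interstitial collagen genes and 17 of the 18 basement membrane genes, joined by a grey line for each gene. The ratios to control 1 are the smaller in most genes, and COL11A1, COL4A3 and COL4A4 lie below 0 on both.

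Matricellular proteins and other glycoproteins, which tune how cells meet the matrix, held 18 higher and 2 lower genes of 23 (median 1.29). POSTN, periostin, was measured at 8.32 and 6.58 CPM in controls 1 and 2, 8.89 at 12 h, 11.5 at 24 h and 43.1 at 48 h (5.78-fold, log2 2.53 ± 0.17), with most of its rise after 24 h. BGN, the proteoglycan biglycan, was at 51.98 and 37.7 CPM in the controls and 123, 143 and 275 at 12, 24 and 48 h. TNC, tenascin C, was at 5.44 and 3.11 CPM in controls 1 and 2, 31.3 at 12 h, 15.3 at 24 h and 25.5 at 48 h, highest at 12 h. FN1, fibronectin, was 2.15-fold above control 1 and 3.997-fold above control 2, and its call was lost under 4 alternatives. The lower genes were CCN1 and CCN2, early targets of YAP and of TGF-beta signalling, at 1.61-fold and 1.304-fold below the controls. The CCN2 difference changed sign under library totals and its call was lost under 5 alternatives.

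Collagen processing genes held 12 higher and 1 lower of 16 (median 1.19), where 26.8% and 24.4% of all genes were. Against the mean of the 12 and 24 h biopsies 5 were higher and 2 lower, where 10.7% and 5.24% of all genes were. LOXL2, a crosslinking oxidase, was at 3.599 and 2.96 CPM in controls 1 and 2, 29.1 at 12 h, 20.1 at 24 h and 23.7 at 48 h (7.22-fold). LOXL4 and PCOLCE, an enhancer of procollagen cleavage, rose 5.57-fold and 4.45-fold. P4HA2, a prolyl hydroxylase subunit, was 1.62-fold lower, a call lost in the line fits that left out a control.

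Proteases and their inhibitors held 18 higher and 1 lower gene of 20 (median 1.79). TIMP1, an inhibitor of metalloproteinases, was at 8.12 and 6.16 CPM in controls 1 and 2, 174 at 12 h, 76.6 at 24 h and 75.4 at 48 h (10.5-fold, log2 3.40 ± 0.16), with its peak at 12 h. MMP3, absent from the counts of both controls, reached 0.815, 0.467 and 2.37 CPM in the biopsies. The lower gene was MMP11 at 14.4 and 18.7 CPM in the controls and 10.5 at 48 h, a call lost under 4 alternatives.

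Markers of the cells that lay down matrix rose with it. Of 14 tested genes of fibroblasts, pericytes and smooth muscle, 12 were higher and 0 lower (median 1.25, or 1.13 against control 1 and 1.45 against control 2), and they summed to 493 and 392 CPM in the controls and 1280.2 at 48 h. ACTA2, smooth muscle actin, was measured at 149 and 116 CPM in controls 1 and 2, 158 at 12 h, 191 at 24 h and 439 at 48 h (3.32-fold, log2 1.73 ± 0.16). PDGFRA and PDGFRB, receptors of these cells, were 4.49-fold and 2.05-fold higher, and DES, desmin, 3.97-fold. ACTA2 was 2.53-fold higher at 48 h than in the earlier biopsies, while DES did not differ from them by the test. The PDGFRA call against the controls was lost under 2 alternatives. How far the share of such cells in each core accounts for the matrix values was not tested. The human table held 34.2 counts per 100 pig-table counts over the matrix genes at 48 h, against 32.6 and 30.9 in the controls.

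The mature proximal tubule, the segment that reabsorbs most of the filtrate, stood at the opposite end. Of 41 tested genes in 2 lists, 39 were lower than in the controls and 0 were higher, and 37 were at least 2-fold below both controls. The median was -1.76 at 48 h, after -1.75 at 12 h and -1.45 at 24 h. Against the earlier biopsies 12 were lower at 48 h and 1 was higher, and in 24 of the 41 the 48 h library was the lowest of 5, against 19% of all genes. Under library totals the median was -1.18.

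Among transporters, SLC5A12, a lactate carrier of the brush border, was measured at 2774 and 2694 CPM in controls 1 and 2, 322 at 12 h, 211 at 24 h and 144 at 48 h. It was 19.1-fold lower (log2 -4.25 ± 0.27), and its level declined at every time. SLC22A6, the organic anion transporter OAT1, was at 391 and 439.8 CPM in controls 1 and 2, 77.6 at 12 h, 88.6 at 24 h and 40.6 at 48 h (10.2-fold lower). SLC7A8, an amino acid exchanger, was at 855 and 805 CPM in controls 1 and 2, 42.5 at 12 h, 65.6 at 24 h and 89.1 at 48 h, which is 9.32-fold below the controls but 1.69-fold above the earlier biopsies, the latter call being lost without the 12 h biopsy. SLC34A1, the phosphate transporter NaPi-IIa, was at 2120.1 and 2402 CPM in the controls and 439, 786 and 601 at 12, 24 and 48 h. LRP2, the endocytic receptor megalin, was 3.71-fold lower, with 470.1 CPM at 12 h and 872 at 48 h, a call lost in the line fits that left out a control. Neither SLC34A1 nor LRP2 differed by the test from the earlier biopsies, though LRP2 was called when the 24 h biopsy was left out (log2 difference 0.89). SLC5A1 and SLC2A2, glucose carriers, were the 2 members not called, at 15.5 CPM against 19.5 and 14.8 for SLC5A1 and 89.6 against 81.2 and 77.6 for SLC2A2.

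All 17 genes of proximal tubule metabolism and brush border were lower, each at least 2-fold against both controls (median -1.73). GATM, which makes the precursor of creatine, was at 847 and 1093 CPM in controls 1 and 2, 159.9 at 12 h, 149.6 at 24 h and 95.9 at 48 h (10.1-fold lower, log2 -3.34 ± 0.21). AGMAT, an agmatinase, fell 8.92-fold, and DDC, which makes dopamine, 6.33-fold. All 3 were lower at 48 h than in the earlier biopsies. Genes of fatty acid oxidation, the main fuel path of this segment, held 14 lower and 1 higher of 17 (median -0.82, and -0.26 under library totals). ACADM, a dehydrogenase of medium-chain fatty acids, was at 1891 and 2106 CPM in controls 1 and 2, 831 at 12 h, 744 at 24 h and 405 at 48 h (4.93-fold lower). EHHADH and HADH were 4.32-fold and 3.95-fold lower, and CPT1A, the gate of mitochondrial import, was the higher member at 1.68-fold.

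Transcription factors of the tubule were mixed. Of 17 tested, 8 were lower and 2 higher, with a median of -0.44 that became 0.12 under library totals. Of all genes tested, 24.4% were lower and 26.8% higher. HNF4A, a regulator of the proximal tubule programme, was at 593 and 639.7 CPM in controls 1 and 2, 499 at 12 h, 385 at 24 h and 320.0 at 48 h (1.93-fold lower, log2 -0.95 ± 0.19). MAF, at 575 and 849 CPM in the controls and 161 at 48 h, was 4.43-fold lower. PPARA, which drives fatty acid oxidation genes, was 2.41-fold lower. TFAP2B and SIM2 were the higher members (1.91-fold and 2.05-fold). Calls were lost for SIM2 under 3 alternatives and for HNF4A and TFAP2B under 1 each.

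In the thick ascending limb 4 of 11 genes were higher and 2 lower (median 0.36), where 26.8% and 24.4% of all genes were. UMOD, uromodulin, was at 2664 and 2543 CPM in controls 1 and 2, 5126 at 12 h, 4990.4 at 24 h and 3376 at 48 h, a fitted log2 of 0.37 ± 0.27 that was not called. SLC12A1, the loop diuretic target NKCC2, was at 442 and 347 CPM in the controls and 407 at 48 h and was not called either. CLDN16, a paracellular magnesium pore, was 3.79-fold higher, and CASR, the calcium-sensing receptor, 2.47-fold. EGF and CLDN10 were lower, at 2.28-fold and 2.03-fold, with calls lost under 3 and 1 alternatives.

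In the distal convoluted and connecting tubule 5 of 10 genes were lower and 0 higher (median -0.61, and -0.05 under library totals). Of all genes tested, 24.4% were lower and 26.8% higher. SLC12A3, the thiazide target, was at 164 and 192 CPM in controls 1 and 2, 26.7 at 12 h, 74.1 at 24 h and 46.4 at 48 h (3.85-fold lower). CALB1, a calcium buffer, was at 1847 and 1562 CPM in controls 1 and 2, 968 at 12 h, 3267 at 24 h and 829.6 at 48 h, so that the 24 h biopsy was above the controls and the 48 h biopsy below them. The calls of SLC12A3, CALB1 and TRPM6 were lost when the biopsies were fitted with a line over time.

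Principal cells of the collecting duct held 5 higher and 1 lower gene of 13 (median 0.19) against the controls, and 0 higher and 5 lower against the earlier biopsies. Over all genes the higher and lower shares were 26.8% and 24.4% against the controls, and 10.7% and 5.24% against the earlier biopsies. AQP2, the vasopressin-regulated water channel, was at 82.5 and 83.3 CPM in controls 1 and 2, 158 at 12 h, 185 at 24 h and 85.7 at 48 h. Its 48 h level was near that of the controls (log2 0.05 ± 0.16, not called) and 1.997-fold below the earlier biopsies. FXYD4, a regulator of the sodium pump, was at 3.87 and 2.13 CPM in controls 1 and 2, 60.3 at 12 h, 74.2 at 24 h and 16.7 at 48 h and fell 4.003-fold from the earlier biopsies, a call lost under 2 alternatives. AQP3 and the sodium channel subunit gene SCNN1A were 1.76-fold and 1.67-fold above the controls and lower than in the earlier biopsies, a call that AQP3 lost without the 12 h biopsy. The lower member against the controls was KCNJ16 (1.72-fold), with its call lost in the line fits.

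Intercalated cells, which handle acid, held 9 higher and 1 lower gene of 13 (median 0.71, and 1.26 under library totals), where 26.8% and 24.4% of all genes were. Only 1 of the 13 was at least 2-fold higher than both controls. SLC4A1, the chloride-bicarbonate exchanger of type A cells that red cells also carry, was at 42 and 41.5 CPM in controls 1 and 2, 85.4 at 12 h, 124 at 24 h and 112 at 48 h (2.68-fold). HBB, the adult globin gene, was at 0.201 and 0.249 CPM in the controls and 0.863 at 48 h. ATP6V0D2, a proton pump subunit, was 2.001-fold and AQP6 1.897-fold higher. SLC4A9, a transporter of type B cells, was at 35.2 and 40.9 CPM in controls 1 and 2, 5.02 at 12 h, 4.94 at 24 h and 5.69 at 48 h and was 6.69-fold lower.

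**Figure D4:**
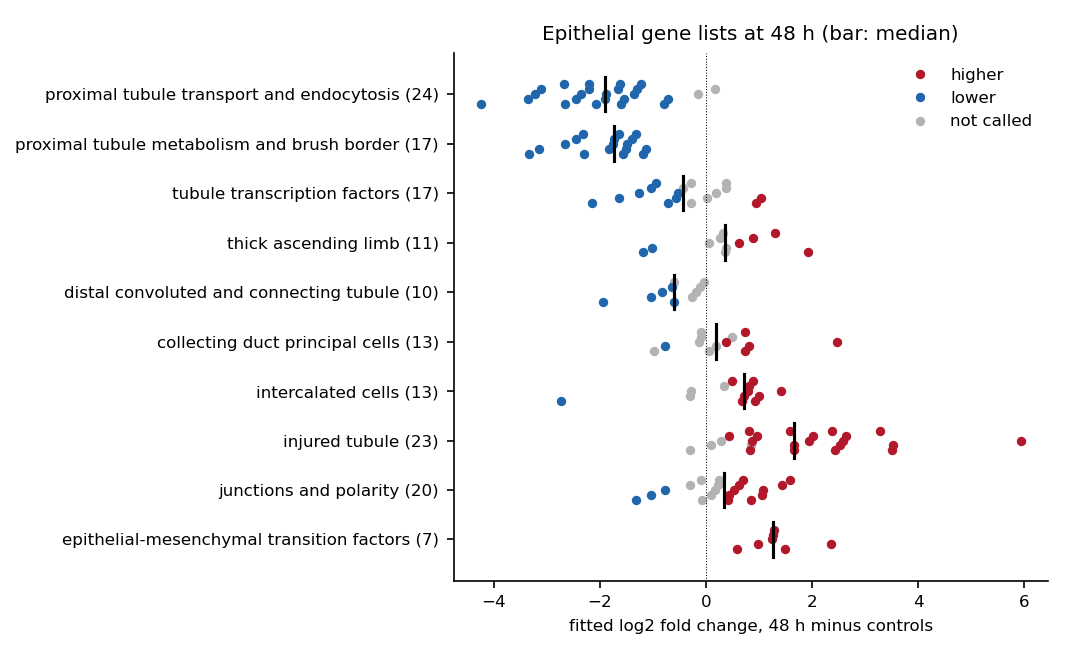
Fitted log2 fold change of the 48 h biopsy against the controls for the tested genes of 10 epithelial lists (number of genes in brackets), with called genes in red (higher) or blue (lower), uncalled genes in grey and the list median as a bar. Both proximal tubule lists lie below 0 in the median (-1.90 and -1.73), the injured tubule list lies above it (1.66), and the distal lists spread around it.

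Most genes of injured tubule cells were higher at 48 h. Of 23 tested, 19 were higher than in the controls and 0 lower (median 1.66, after 1.65 at 12 h and 1.47 at 24 h), where 26.8% and 24.4% of all genes were. Against the earlier biopsies 5 were higher and 6 lower, where 10.7% and 5.24% of all genes were, and the 5 became 3 under the DESeq2 test. ANXA2, a membrane-binding annexin gene, was at 75.7 and 78.9 CPM in controls 1 and 2, 1139 at 12 h, 783 at 24 h and 882 at 48 h (11.4-fold, log2 3.51 ± 0.18), and S100A6 rose 11.5-fold. VCAM1, an adhesion molecule of tubule cells that fail to recover and also of activated endothelium, was at 70.4 and 55.5 CPM in controls 1 and 2, 119 at 12 h, 122 at 24 h and 242 at 48 h (3.84-fold). VCAM1 was 2.003-fold higher at 48 h than in the earlier biopsies. The other members above the earlier biopsies were CLU, ANXA1, CDH6 and PROM1, and those below them were KRT8, CD44, CD24, S100A10, LGALS3 and HBEGF. SOX9, a factor of regenerating tubule cells, stayed low, from 0.519 and 0.384 CPM in the controls to 1.44 at 48 h (3.17-fold), and its call was lost under 2 alternatives. HAVCR1, LCN2 and SOX4 were not analysed here.

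Junction and polarity genes held 10 higher and 3 lower of 20 (median 0.33), where 26.8% and 24.4% of all genes were. CDH1, E-cadherin, was at 98.8 and 96.9 CPM in controls 1 and 2, 239 at 12 h, 208 at 24 h and 177 at 48 h (1.81-fold higher). CDH2, the cadherin of the proximal tubule, was 2.06-fold lower, and CLDN2, its paracellular cation pore, 2.51-fold, a call lost under 3 alternatives. CLDN1, CLDN3 and CLDN4 were 2.99-fold, 2.71-fold and 2.07-fold higher. All 7 tested genes of the mesenchymal factor list were higher than in the controls (median 1.27). VIM, vimentin, was at 207 and 193 CPM in controls 1 and 2, 837 at 12 h, 594 at 24 h and 1024 at 48 h (5.12-fold, log2 2.36 ± 0.18). SNAI2 rose 2.81-fold and PRRX1 2.41-fold, both also expressed in fibroblasts, whose markers rose as given above, and their part in the result was not tested.

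Interferon-induced genes held 19 higher and 0 lower of 24 (median 1.19, after 1.24 and 0.77 at 12 and 24 h), led by the chemokine genes CXCL11 (17.1-fold), CXCL9 (15.2-fold) and CXCL10 (10.1-fold). CXCL9 was at 2.83 and 2.63 CPM in controls 1 and 2, 15.3 at 12 h, 39.5 at 24 h and 41.6 at 48 h. Per 100 pig-table counts at 48 h the human table held 217 for CXCL11, 181 for CXCL9 and 210 for CXCL10, against 12.5 or less in the controls. How many reads of human cells the pig-table values of these genes hold was not tested. Acute phase genes held 8 higher and 0 lower of 10, with CP, ceruloplasmin, at 3.57-fold above control 1 and 6.52-fold above control 2 and its call lost under 2 alternatives. Cholesterol synthesis and uptake held 9 higher and 1 lower of 19, where 26.8% and 24.4% of all genes were. SQLE, an epoxidase of the sterol path, was 2.88-fold higher and PMVK 2.03-fold lower. Ribosome biogenesis held 12 higher and 1 lower of 19 (median 0.56, after 1.02 at 12 h), with none of them 2-fold against both controls. FBL, a nucleolar methyltransferase gene, was 1.89-fold higher and POLR1A, the large subunit of RNA polymerase I, 1.59-fold lower. The unfolded protein response held 6 higher and 2 lower of 19, a higher share near the 26.8% of all genes, and its median was 0.06, with TRIB3 5.61-fold higher and ATF3 4.73-fold lower.

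Markers of other cell types differed in direction. Myeloid markers held 11 higher and 1 lower of 12 (median 2.40) and summed to 143 and 163 CPM in the controls and 453, 548 and 679.7 at 12, 24 and 48 h. CD163, a scavenger receptor of macrophages, was at 13.2 and 14.5 CPM in controls 1 and 2, 183 at 12 h, 245 at 24 h and 247 at 48 h (17.8-fold), and MRC1 and CD68 rose 8.85-fold and 8.66-fold. AIF1 was the lower member, 1.42-fold, a difference that changed sign under library totals and whose call was lost under 4 alternatives. CD209, a lectin of dendritic cells and macrophages, was at 1.71 and 2.61 CPM in controls 1 and 2, 0.0967 at 12 h, 0.976 at 24 h and 10.2 at 48 h. CD209 stood below the controls at 12 h and was 4.75-fold above the controls at 48 h. It was 32.9-fold above the log-scale mean of the earlier biopsies, which the 12 h value of 0.0967 CPM pulls down. The log2 difference from the earlier biopsies was 3.38 without the 12 h biopsy and 6.69 without the 24 h biopsy.

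T and NK markers held 11 lower and 1 higher of 13 in the pig table (median -1.46) and summed to 34.9 and 37.7 CPM in the controls and 16.8 at 48 h. CD3D was at 1.76 and 1.78 CPM in controls 1 and 2, 0.774 at 12 h, 0.687 at 24 h and 0.313 at 48 h (5.64-fold lower), CD3E was 4.09-fold lower, and NKG7 was the higher member at 2.65-fold. Endothelial markers held 10 higher and 0 lower of 13 (median 0.83), with VWF, von Willebrand factor, at 22.3 and 15.4 CPM in controls 1 and 2, 23.00 at 12 h, 46.2 at 24 h and 72.8 at 48 h (3.26-fold above control 1 and 4.72-fold above control 2). PECAM1 and CDH5 rose 3.68-fold and 2.55-fold. Podocyte markers were lower in 5 of 8 and higher in 1, SYNPO, a call lost under 4 alternatives. NPHS1, nephrin, was at 22.5 and 18.3 CPM in controls 1 and 2, 4.71 at 12 h, 4.33 at 24 h and 5.46 at 48 h (3.73-fold lower). Of the 8 podocyte markers, 4 were higher than in the earlier biopsies. Thymus markers held 2 lower of 3. Of the B and plasma cell markers 1 of 5 was higher (CD79A) and 1 lower (JCHAIN, 2.01-fold). CD79A was at 356 and 403 CPM in the controls, where CD79B and PAX5 were too low to be tested, so its value is not read as a level of B cells.

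The human table differed by cell type. Per 100 pig-table counts of T and NK markers it held 3.98 in control 1, 2.34 in control 2, 72.8 at 12 h, 68.3 at 24 h and 210.5 at 48 h. For myeloid markers the ratio was 13.2 and 11.9 in the controls and 61.1 at 48 h, for markers of all leukocytes 16.2 and 16.5 against 135, and for interferon-induced genes 17.8 and 15.9 against 59.3. For proximal tubule genes it was 13.6 and 12.5 in the controls and 14.7 at 48 h. For B and plasma cell markers it was 2.03 and 1.41 in the controls and 0.955 at 48 h. The T and NK, myeloid and all-leukocyte ratios thus lay above that of the whole tables (33.4 at 48 h), the B and plasma cell and proximal tubule ratios lay below it, and the matrix and mitosis ratios lay near it. Lists also differed in ratio without a transplant. The mesenchymal factor list held 62.8 and 65.5 in the controls and 63.3 at 48 h. A ratio above or below that of the whole tables therefore does not by itself measure human cells. How many reads of human cells the pig-table values of leukocyte and interferon-induced genes hold was not tested.

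**Figure D5:**
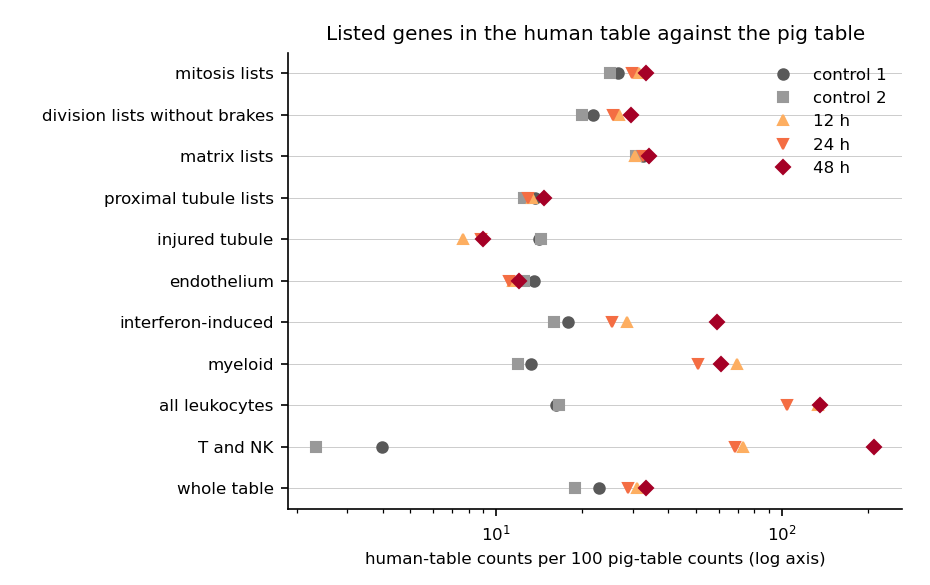
Human-table counts per 100 pig-table counts (logarithmic axis), summed over the genes of each list and over the whole tables, in the 2 controls and the biopsies at 12, 24 and 48 h. Over the 5 libraries the summed ratio runs from 25.00 to 33.5 for mitosis, 30.6 to 34.2 for matrix and 12.5 to 14.7 for proximal tubule genes. T and NK genes go from 3.98 and 2.34 in the controls to 210.5 at 48 h.

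Genes that were lower at 48 h than at 12 and 24 h included several that had peaked early. APOA4, an apolipoprotein gene, was at 0.971 and 1.04 CPM in controls 1 and 2, 78.5 at 12 h, 24.1 at 24 h and 3.75 at 48 h (11.6-fold lower than the earlier biopsies, still 3.74-fold above the controls). Its log2 difference from the earlier biopsies was -2.69 without the 12 h biopsy and -4.39 without the 24 h biopsy. TTR, transthyretin, was at 12.8 and 14.1 CPM in controls 1 and 2, 10.3 at 12 h, 5.75 at 24 h and 1.44 at 48 h and was lower than both the controls and the earlier biopsies. The uncoupling protein gene UCP3 reached 3.83 CPM at 12 h and was 0.275 and 0.104 CPM at 24 and 48 h, and its call was lost without the 12 h biopsy. VAT1L and ALOX15B also peaked at 12 h, and went from 2.17 and 3.29 CPM at 12 h to 0.149 and 0.357 at 48 h.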

How the data were processed

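Total RNA of kidney core biopsies was depleted of ribosomal RNA and sequenced, per the labels' protocols. The authors deposited 1 table of raw read counts per gene for the pig and 1 for the human genome, with a column for each of the 5 libraries, all of which were mapped to a sample by name. The submitters' processing notes name hg38, while the sources used here do not state the aligner, the pig annotation or the use of strand, so overlapping and antisense genes cannot be told apart. A set of 26 symbols of the X-inactivation transcript and of Y-linked genes was left out of the human table.

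All 5 libraries entered 1 fit of 4 groups with edgeR 4.0.16 in R 4.3.3 (limma 3.58.1). The filter was filterByExpr (minimum count 10, minimum total 15), and it kept 12857 of 15235, and counts were scaled by TMM. The quasi-likelihood test left 1 residual degree of freedom, the control pair, and p-values were adjusted by Benjamini-Hochberg over all genes tested, with calls at 0.05. The median prior degrees of freedom were infinite. For most genes the variance was thus set to the trend over all genes and not to the gene's own spread between the controls. The approximate SE was taken as the absolute log2 fold change over the root of its F statistic. Ratios to each control used a prior count of 2. In simulated data for this comparison (12522 genes), 100 genes were changed at each fold, none of them of low count. The test called 90% of those with a 2-fold change and 100% of those with a 4-fold change, and 13 of 203 calls were false. The simulated 48 h library was given the same spread as the controls, and far fewer genes changed than were called here. These figures therefore do not test whether the 48 h biopsy varies as the controls do.

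The members and gene lists were chosen with earlier results of these data known. Named genes are the 12 highest and 12 lowest against both controls with a CPM of at least 1, the 3 highest and 3 lowest called members of each list, the 8 highest and 8 lowest against the earlier biopsies, and a fixed set; further list members, and those outside the lists, were chosen after their values were seen. A few genes that these rules name are not reported here. Counting intervals are exact at 95% and, like the floor of 3 counts, cover counting error only. Alternatives were other scalings and filters, DESeq2 1.42.0, leaving out libraries or mitochondrial genes, a line over time, other prior counts and another fold, and, chosen after seeing the data, edgeR's newer fit and the line with a control left out.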

Additional observations from a re-analysis of the deposited data

Results flagged for a closer look

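Within the biopsies, the response at 48 h differed from that at 12 and 24 h by a test of the difference itself, the quasi-likelihood test of edgeR with p-values adjusted by Benjamini-Hochberg, in 1377 genes that were higher and 674 that were lower. Among genes at a CPM of at least 1, CD209, a lectin gene of macrophages and dendritic cells, was one of the genes with the largest such difference outside cell division, with a log2 value of 5.04, which was 3.38 without the 12 h biopsy and 6.69 without the 24 h biopsy. It stood below the controls in the 12 and 24 h biopsies and above them at 48 h. The 12 and 24 h groups hold 1 library each, and without the 12 h biopsy the counts were 709 and 353.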

How the results depend on the processing

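Against the controls, the DESeq2 test called 2257 genes higher, against 3443 with edgeR. A line over time fitted without control 1 or 2 called 1420 to 1716 genes higher and 1101 to 1383 lower. Against the 12 and 24 h biopsies, 426 genes were lower under upper quartile scaling. The DESeq2 test called 475 higher and 280 lower there, with 27 matrix and 3 injured tubule genes higher. Leaving out the 12 or the 24 h biopsy gave 709 to 1759 genes higher, 353 to 1084 lower and 31 to 48 matrix genes higher. Counts of genes changed 2-fold against both controls were 2785 and 496 by library totals and 461 and 258 at a fold of 4. The median of proximal tubule genes lay at -1.81 to -1.77 and that of injured tubule genes at 1.63 to 1.83 when either control was left out.

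The mitosis, matrix and proximal tubule counts against the controls stayed within 1.5 times of their values under every alternative run. Upper quartile scaling moved the higher share of calls from 52.3% to 61.5% against the controls and from 67.1% to 75.6% against the earlier biopsies. Against the 12 and 24 h biopsies, leaving out 1 biopsy turned the sign of the log2 difference, with a call in the full or the reduced fit, for 4 named genes. It ran from -1.37 (without 24 h) to 0.070 (without 12 h) for GADD45B, from 0.79 to -0.68 for SLC12A3 and from 0.58 to -0.55 for TRPM6, and from 0.10 to -5.14 for ssc-mir-10390. Differences called in neither of these fits also changed sign, as for LRP2 (-0.28 without 12 h), although LRP2 was called without the 24 h biopsy (0.89). The cause of these changes was not tested.

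Of the calls against the controls for named genes, the line with a control left out lost 35 and 42. Among genes named above, further calls lost only in line fits were those of AQP3, AQP6, CCN1, CD79A, CDKN1B, CPT1A, DUT, FBL, FXYD4, JCHAIN, PRRX1, RB1, SCNN1A and TNC. No paired analysis was possible because each biopsy time holds 1 library and the controls are not numbered to match any biopsy. Depth limits precision in genes of few counts, where the lowest pig-table total was 56129926.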

Other observations

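Genes outside the lists, chosen after their values were seen, showed further changes at 48 h. The complement genes C1QA, C1QB and C1QC, which encode the chains of C1q and are made by macrophages, were higher. C1QA was at 24.8 and 32.4 CPM in controls 1 and 2, 36.6 at 12 h, 59.04 at 24 h and 146 at 48 h (5.09-fold, called by the quasi-likelihood test of edgeR with p-values adjusted by Benjamini-Hochberg), and C1QB and C1QC rose 3.92-fold and 4.04-fold. Of other complement genes, C2 rose 8.78-fold and C6 2.201-fold. CHI3L1, a secreted chitinase-like protein gene, was at 0.234 and 0.211 CPM in controls 1 and 2, 0.553 at 12 h, 0.839 at 24 h and 8.57 at 48 h (38.1-fold). STMN1, a microtubule regulator, was at 13.9 and 13.3 CPM in controls 1 and 2, 13.6 at 12 h, 19.8 at 24 h and 103 at 48 h (7.53-fold), and CTHRC1, a collagen-associated secreted protein gene, at 5.83 and 6.87 CPM in controls 1 and 2, 5.18 at 12 h, 4.81 at 24 h and 13.6 at 48 h. The junction gene CLDN6, known from embryonic epithelia, was at 1.52 and 1.54 CPM in controls 1 and 2, 13.7 at 12 h, 18.6 at 24 h and 39.1 at 48 h.

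Other proximal tubule enzymes outside the lists were lower. G6PC1, the last step of glucose release, was 11.9-fold, HAO1, a peroxisomal oxidase, 13.5-fold and DMGDH, an enzyme of choline breakdown, 9.68-fold below the controls. NOX4, the oxidase of tubule cells, was at 841 and 773 CPM in controls 1 and 2, 45.2 at 12 h, 77.5 at 24 h and 68.6 at 48 h (11.8-fold lower). NAMPT, an enzyme of NAD salvage, was at 133 and 142 CPM in controls 1 and 2, 729 at 12 h, 188 at 24 h and 151 at 48 h, with its 12 h value far above the other 4 libraries.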
